A study of Mus musculus with 2 samples.

Results

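A set of 10 genes that mark or maintain haematopoietic stem and progenitor cells were followed in the newborn mouse spleen: the surface molecules Cd34, Kit, Procr, Slamf1 and Cd48, and the transcription factors Meis1, Mecom, Hlf, Mycn and Erg. They were chosen by name, and all 10 were among the 43346 Ensembl genes of the deposited tables. The samples were spleens taken at day 0 after birth from 2 littermate pups of strain B6NCrl and of unrecorded sex, with 1 total RNA library per spleen made from 10 ng of RNA longer than 200 nt. Replicate 1 is pup 2 and replicate 2 is pup 1. Both carry the same donor identifier, although their descriptions name separate pups. There is 1 group, so the data give levels and the difference between 2 libraries, with no contrast between conditions and no test.

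Blood formation in the mouse moves from the fetal liver to the bone marrow around birth, and the spleen takes up circulating stem and progenitor cells in that period. Stem cells are commonly sorted by surface molecules: Kit and Procr are carried by them, Slamf1 marks long-term stem cells, Cd48 is gained as progenitors become committed, and Cd34 is carried by progenitors and by adult short-term stem cells. Most of these genes are also used outside that compartment. Kit is the growth receptor of mast cells, Cd48 is found on most leukocytes, and Cd34, Procr, Mecom and Erg are also expressed by endothelium. In whole spleen, fewer cells of a type and less RNA per cell cannot be told apart.

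Replicate 1 held 33122187 expected counts in all and replicate 2 held 32162543. Erythroid genes (10 of 10 markers), the 11 markers of splenic mesenchyme, such as Tlx1 and Nkx2-5, and 11 of 12 leukocyte markers were detected at 1 TPM (the deposited transcript abundance, normalized for length and for the library's total) in both libraries. Markers of the neighbouring pancreas were present as well, and summed to 1013 TPM in replicate 1 and 393 TPM in replicate 2. No gene of any marker list was at 0 in both libraries.

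Of the 10 stem and progenitor genes, 9 reached 1 TPM in both libraries, beside 55.6% of the 21474 protein-coding genes. Their TPM summed to 106 in replicate 1 and 139 in replicate 2. They fell into a group of 4 genes near 20 to 30 TPM (Cd34, Cd48, Meis1 and Kit) and 6 genes below 7 TPM in both libraries. The median of all detected protein-coding genes was 13.1 TPM, between those groups.

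**Figure D1:**
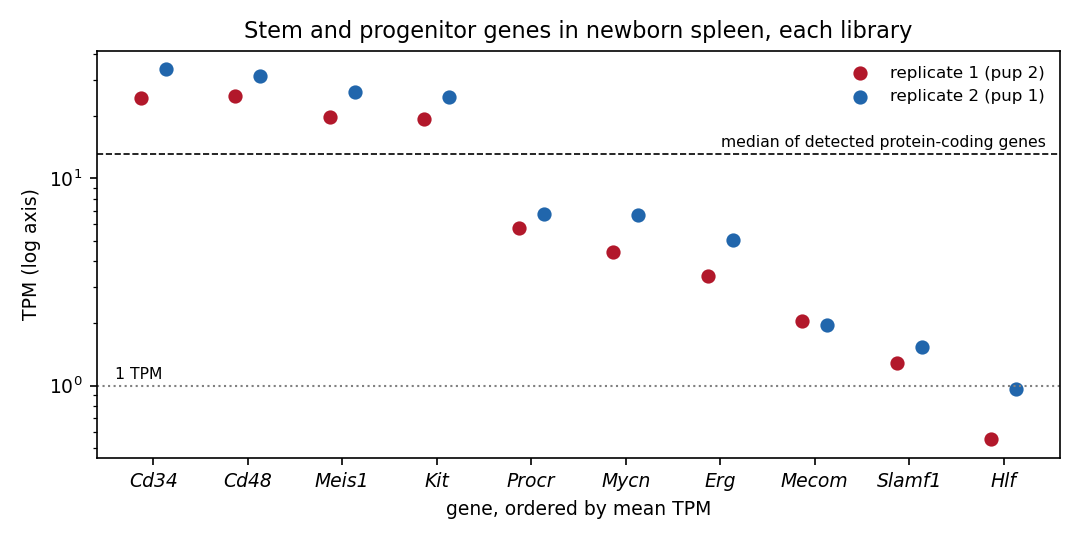
TPM on a log axis of each of the 10 genes in replicate 1 (pup 2, left point) and replicate 2 (pup 1, right point), ordered by the mean. Cd34, Cd48, Meis1 and Kit sit above the median of detected protein-coding genes (dashed, 13.1 TPM) in both libraries, and Hlf alone sits under 1 TPM (dotted) in both.

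Among the surface molecules, Cd34, a sialomucin (chr1:194938819-194961279, + strand, mm10), had 24.3 TPM in replicate 1 and 33.7 TPM in replicate 2, a mean of 29.0 ± 6.59 (SD, n = 2). Cd48, an immunoglobulin-family ligand of Cd244a (chr1:171682009-171705258, + strand), had 25.0 TPM in replicate 1 and 31.1 TPM in replicate 2, a mean of 28.0 ± 4.33. The pair changed places between the libraries, Cd48 being the higher in replicate 1 and Cd34 in replicate 2, so neither stood above the other beyond the spread. Kit, the receptor tyrosine kinase for stem cell factor (chr5:75574916-75656722, + strand), had 19.3 TPM in replicate 1 and 24.9 TPM in replicate 2, a mean of 22.1 ± 3.92, from 3073 and 3762 counts.

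The other surface molecules were lower. Procr, the endothelial protein C receptor (chr2:155751117-155755471, + strand), had 5.79 TPM in replicate 1 and 6.77 TPM in replicate 2, a mean of 6.28 ± 0.693. Slamf1, also called CD150 (chr1:171767127-171801184, + strand), had 1.29 TPM in replicate 1 and 1.54 TPM in replicate 2, a mean of 1.42 ± 0.177, from 113 and 128 counts. Replicate 2 was the higher library for every surface molecule. Cd48 was 19.4 times Slamf1 by TPM in replicate 1 and 20.2 times in replicate 2.

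Among the transcription factors, Meis1, a homeodomain partner of PBX and HOXA proteins (chr11:18879817-19018985, - strand), had 19.9 TPM in replicate 1 and 26.0 TPM in replicate 2, a mean of 22.9 ± 4.33. Mycn, the N-Myc factor (chr12:12936093-12941914, - strand), had 4.42 TPM in replicate 1 and 6.69 TPM in replicate 2, a mean of 5.56 ± 1.61. Erg, an ETS factor (chr16:95359169-95586593, - strand), had 3.39 TPM in replicate 1 and 5.04 TPM in replicate 2, a mean of 4.22 ± 1.17. All 3 were higher in replicate 2.

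Mecom, the zinc finger factor of the Evi1 locus (chr3:29951296-30548008, - strand), had 2.05 TPM in replicate 1 and 1.95 TPM in replicate 2, a mean of 2.00 ± 0.0707, from 218 and 189 counts. It was the only one of the 10 with the higher value in replicate 1. Hlf, a PAR basic leucine zipper factor (chr11:90336536-90390895, - strand), had 0.55 TPM in replicate 1 and 0.96 TPM in replicate 2, a mean of 0.755 ± 0.290, from 88 and 130 counts. It was under the detection limit of 1 TPM in both libraries, while its posterior mean TPM, another estimate the authors deposited, was 0.95 in replicate 1 and 1.53 in replicate 2. For Hlf the choice of estimate therefore moved replicate 2 across the limit. Of the posterior mean TPM of Hlf, 22.6% in replicate 1 and 26.1% in replicate 2 lay in Hlf-205, which had 0 expected counts in both. The posterior mean TPM of Mecom was 2.48 in replicate 1 and 2.31 in replicate 2, both above its TPM in either library. The small SD of Mecom does not cover that difference.

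In the order of mean TPM, 4 of the 9 steps between neighbours separated the libraries' ranges in the same direction: Kit above Procr, Erg above Mecom, Mecom above Slamf1 and Slamf1 above Hlf. The step from Slamf1 to Hlf did not hold by posterior mean TPM, where both had 1.53 in replicate 2. The widest of the 4 steps was Kit over Procr, 3.33 times in replicate 1 and 3.67 times in replicate 2. Within Cd34, Cd48, Meis1 and Kit, and within Procr, Mycn and Erg, the ranges of neighbours overlapped. Of those neighbours, only Cd34 and Cd48 changed places, and the others kept the same order within each library. Cd34 was above 83.9% of protein-coding genes by mean TPM, Kit above 80.1%, Procr above 61.2%, Mecom above 48.4% and Hlf above 41.4%.

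Transcripts of Kit, Cd34 and Meis1 differed in alternative ends or inclusion of coding exons, and the bases that tell them apart are printed here from GENCODE M21 transcripts on GRCm38 (mm10). The first pair shows the end of Kit exon 9, with the 12 bases that only Kit-201 holds in capitals. They add 4 codons to the extracellular part of the receptor, an insertion known to give receptor forms that differ in signalling.
Kit-201 (chr5:75639099-75639158, + strand): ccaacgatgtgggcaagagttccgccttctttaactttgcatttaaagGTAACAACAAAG
Kit-204 (chr5:75639099-75639146, + strand): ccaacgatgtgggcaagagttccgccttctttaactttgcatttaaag

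The longer Kit form held 37.7% of the TPM of the 2 transcripts in replicate 1 and 50.4% in replicate 2, a mean of 44.1% ± 9.01 (SD, n = 2). By expected counts it had 1153 of 3068 in replicate 1 (37.6%, exact binomial 95% interval 35.9% to 39.3%) and 1891 of 3758 in replicate 2 (50.3%, 48.7% to 51.9%). Both forms were thus present in both libraries, the shorter in the majority in replicate 1 and the 2 forms about level in replicate 2. The intervals cover counting error only. The authors' posterior SD of the Kit-201 count was 148 in replicate 1 and 282 in replicate 2, and the annotated transcripts also differ by 39 nt at their 5′ ends.

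Cd34 exon 8 has an earlier start in Cd34-202, which adds 156 nt (chr1:194959780-194959935) and reaches a stop codon after 4 codons, where Cd34-201 runs on for 61 codons. The earlier start gives the truncated cytoplasmic tail known for mouse Cd34. The lines show the last bases of exon 7 in lower case and the first bases of exon 8 in capitals, joined across the intron.
Cd34-202: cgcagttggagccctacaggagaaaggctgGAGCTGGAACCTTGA
Cd34-201: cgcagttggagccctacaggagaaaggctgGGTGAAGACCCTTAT

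The truncated form held 23.1% of the TPM of the pair in replicate 1 and 20.8% in replicate 2, a mean of 22.0% ± 1.58 (n = 2). By counts the shares were 23.8% in replicate 1 (95% interval 21.8% to 25.8%) and 21.5% in replicate 2 (19.9% to 23.3%), and these intervals overlapped. Full-length Cd34-201 thus led in both libraries.

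Meis1 transcripts end in alternative ways after exon 11. Inclusion of exon 12 (chr11:18883988-18884082, 95 nt) gives 18 more codons and a stop, and its absence joins a last exon with 93 codons before the stop, so the proteins differ at the C terminus. The exon 12 bases up to the stop codon, in capitals, and the first bases of the other last exon are shown.
Meis1-201 (chr11:18884024-18884082, - strand): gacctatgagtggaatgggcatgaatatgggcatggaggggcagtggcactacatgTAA
Meis1-209 (chr11:18881864-18881922, - strand): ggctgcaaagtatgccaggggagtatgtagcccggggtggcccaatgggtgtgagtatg

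The transcripts with exon 12, Meis1-201 and the non-coding Meis1-203, held 74.6% of the TPM of those that reach this choice in replicate 1 and 53.4% in replicate 2, a mean of 64.0% ± 15.0 (n = 2). By counts the shares were 69.1% (95% interval 66.5% to 71.5%) in replicate 1 and 44.7% (42.3% to 47.2%) in replicate 2, so the majority form changed between the libraries by that measure. Between the coding forms shown, Meis1-201 held 56.5% of TPM in replicate 1 and 24.3% in replicate 2, from 506 and 248 counts, while Meis1-209 had 409 counts in replicate 1 and 812 in replicate 2. The authors' posterior SD of these 4 estimates lay between 110.5 and 115 counts. The counts of each form differed between the libraries by more than the SD of any 1 estimate, which is not an SD of the difference. The 2 forms also divide shared reads, so their changes are not independent of each other. Besides, 2 libraries give no estimate of how often littermates differ so.

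Mecom starts from first exons spread over a long stretch of the chromosome, and the locus is known for long forms that carry a PR domain and shorter forms that lack it. The first exons at 30509487 to 30509822 on chromosome 3, far upstream, held 20.5% of Mecom TPM in replicate 1 and 20.9% in replicate 2. Mecom-203, which starts at 30140423, held 35.1% in replicate 1 and 48.0% in replicate 2. First exons at 30011439 to 30013505 held 26.8% in replicate 1 and 15.3% in replicate 2. Most of this was Mecom-216, annotated as a retained-intron transcript and not as coding. It held 18.5% of Mecom TPM in replicate 1 and 15.3% in replicate 2, all of that group in replicate 2. The far upstream exons rest on 56 and 51 counts, with 95% intervals of 20.0% to 32.0% and 20.8% to 33.9% by counts that overlapped, and the other shares on 24 to 105 counts. The intervals leave out error in dividing reads among transcripts. For Mecom-203 the authors' posterior SD was 20.0 on 85 counts in replicate 1 and 16.4 on 104.5 counts in replicate 2. For Mecom-206, of the exons at 30011439 to 30013505, it was 17.6 on 23.1 counts in replicate 1.

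**Figure D2:**
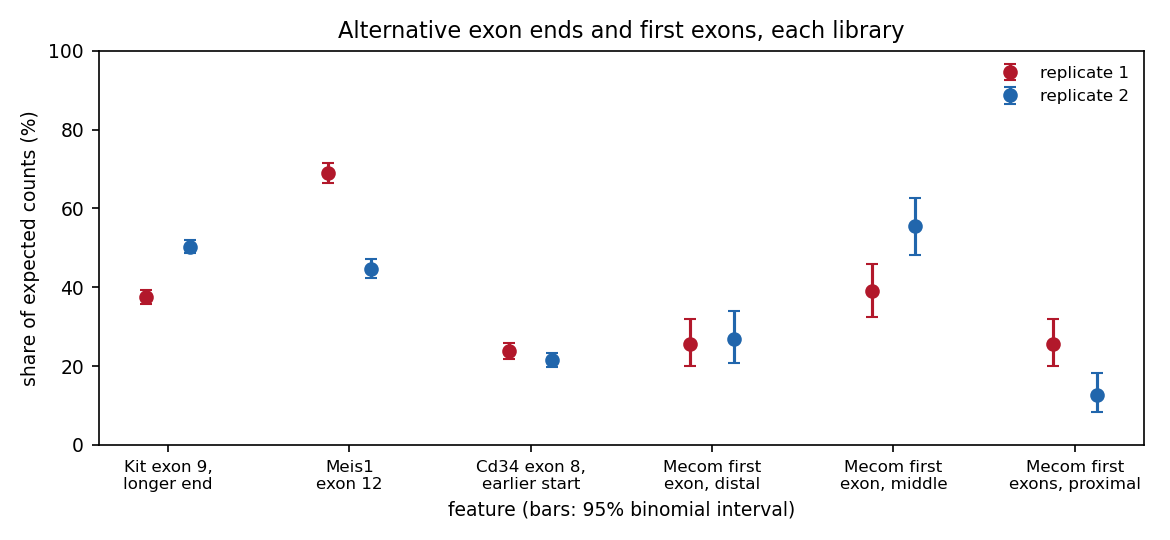
Share of expected counts (%) that held the longer Kit exon 9, Meis1 exon 12, the earlier start of Cd34 exon 8, and each of 3 groups of Mecom first exons (distal at 30509487 to 30509822, middle at 30140423, proximal at 30011439 to 30013505), with exact binomial 95% intervals, replicate 1 left and replicate 2 right. Intervals stand apart between the libraries for Kit, for Meis1, for Mecom-203 and for the proximal Mecom exons, and overlap for Cd34 and the distal Mecom exons. They cover counting error only and leave out error in dividing reads among transcripts.

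Erg has several promoters. Erg-202, Erg-203 and Erg-205, which start at 95459245 to 95459348 on chromosome 16, held 42.5% of Erg TPM in replicate 1 and 49.9% in replicate 2, while Erg-201 and Erg-204, which start farther upstream, held 0% in replicate 1 and 2.38% in replicate 2. A further 57.5% in replicate 1 and 47.7% in replicate 2 lay in transcripts that have no entry in the annotation used here, and their starts were not analysed here. By expected counts the start at 95459245 to 95459348 held less, 26.6% in replicate 1 and 32.8% in replicate 2. By the same measure 1 unplaced transcript held 64.1% and 65.6%. Because the start at 95459245 to 95459348 held the largest share of the placed Erg transcripts only, the 250 bases before it are shown. They come from RefSeq promoters on GRCm38.p6, with matches on either strand in capitals. The motifs searched were AGGAAG, a core of ETS factor sites, then AGATAA, a core of GATA factor sites, next TGACAG, a core of MEIS factor sites, as well as CACGTG, the E-box of MYC factors, and lastly TATAAA, the TATA box.
Erg promoter (chr16:95459349-95459598, - strand): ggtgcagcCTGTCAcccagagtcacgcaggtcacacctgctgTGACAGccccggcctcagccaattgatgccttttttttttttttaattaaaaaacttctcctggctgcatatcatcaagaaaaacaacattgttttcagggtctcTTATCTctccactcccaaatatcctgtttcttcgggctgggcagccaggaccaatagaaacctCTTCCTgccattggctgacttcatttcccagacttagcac

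This window held 1 ETS match, 1 GATA match and 2 MEIS matches, none overlapping another, and no E-box or TATA box. Over the 32851 RefSeq promoters of the same 250 bases, 29.5% held AGGAAG, 9.99% held AGATAA, 15.9% held TGACAG, 6.02% held CACGTG and 12.4% held TATAAA. Among the 14 promoters listed for the 10 genes, 5 held AGGAAG (of Cd34, both Kit entries, Slamf1 and Erg), 1 held AGATAA, 2 held TGACAG (of Erg and Mecom), 0 held CACGTG and 1, another Erg promoter, held TATAAA. A match is a stretch of letters and not a measured binding site.

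Transcripts annotated as not coding took part of several of the 10 genes. Meis1 had the lowest coding share among genes with all transcripts placed: 46.8% ± 2.14 of its TPM was in coding transcripts, 33.6% ± 2.41 in the processed transcript Meis1-203, which starts at 19012002 on chromosome 11, downstream of the main first exons, and 16.9% ± 1.88 in transcripts with a retained intron (n = 2). For Mecom 23.3% ± 7.02 and for Slamf1 11.3% ± 0.645 of TPM was in retained-intron transcripts. Procr had 32.0% in the processed transcript Procr-203 in replicate 1 and 19.5% in replicate 2. Coding transcripts held 97.4% ± 0.683 for Cd34, 98.7% ± 0.612 for Kit and 100% for Cd48. Over the 8 detected genes with every expressed transcript placed, the median coding share was 93.1% and the median retained-intron share 4.83%, against 91.6% and 1.01% over 8466 detected protein-coding genes of that kind with more than 1 transcript. With Erg, whose unplaced transcripts have no class, the 9 detected genes had a median coding share of 88.7%, against 91.1% over 8780 genes.

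**Figure D3:**
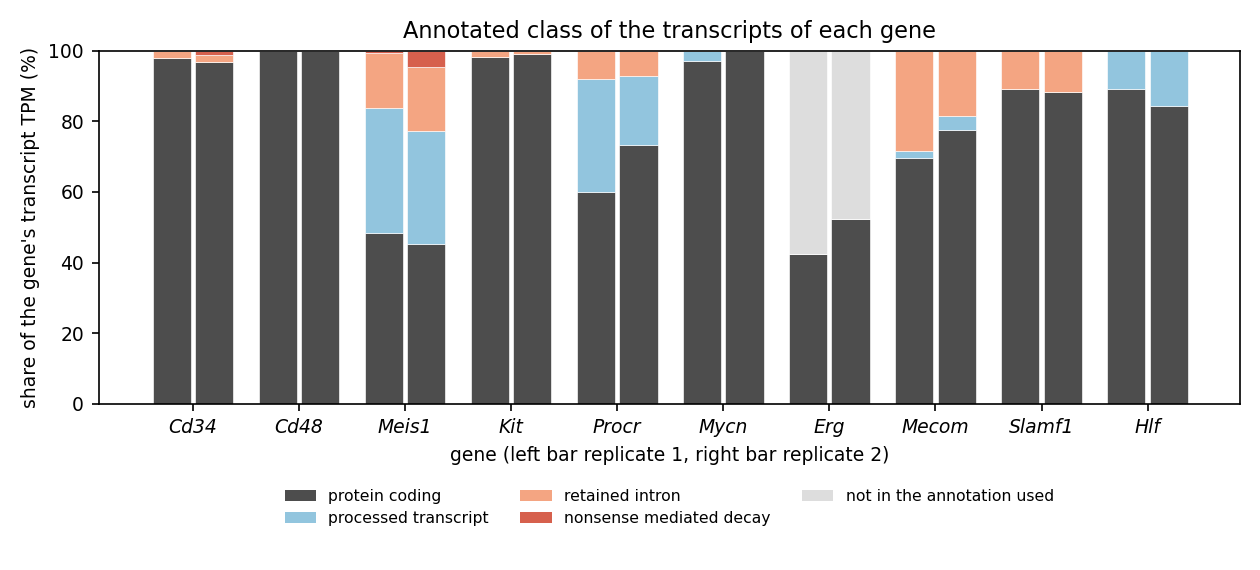
Share of each gene's transcript TPM (%) by annotated transcript class, with replicate 1 as the left bar and replicate 2 as the right bar of each pair. Meis1 has under 50% coding in both libraries, and the pale part of Erg is transcripts without an entry in the annotation used.

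Annotated genes overlap 4 of the 10, and the sources used here do not say if reads were counted by strand, so reads may be shared. The antisense gene Gm16141 within Meis1 had 104 counts in replicate 1 and 185 in replicate 2, against 1689 and 2119 for Meis1 itself. Gm37010 within Cd48 had 44 counts in replicate 1 and 60 in replicate 2. The antisense Gm16897 at Cd34 had 8.14 and 11.2 estimated counts, and no gene overlapping Mecom had more than 17. No annotated gene overlapped Kit, Procr, Slamf1, Hlf, Mycn or Erg.

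Each of the 10 genes was then read beside its family. Cd48 and Slamf1 lie 61.9 kb apart in the SLAM cluster of chromosome 1, whose products are adhesion and signalling receptors of blood cells. Of the 7 other SLAM genes there, 6 were detected. Cd84 was highest with 18.3 TPM in replicate 1 and 21.6 TPM in replicate 2, and Cd244a, the receptor of Cd48, had 6.94 TPM in replicate 1 and 7.76 TPM in replicate 2. Slamf8 was not detected, at 0.18 TPM in replicate 1 and 0.60 TPM in replicate 2. Cd48 was thus the highest and Slamf1 the third lowest of the 9 in both libraries.

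Kit was the highest of the class III receptor tyrosine kinases measured, ahead of Csf1r, the macrophage growth factor receptor, at 13.9 TPM in replicate 1 and 20.7 TPM in replicate 2. Flt3, the receptor of early lymphoid progenitors, had 2.64 TPM in replicate 1 and 3.91 TPM in replicate 2, so Kit was 7.31 times Flt3 in replicate 1 and 6.36 times in replicate 2. Kitl, which encodes stem cell factor, had 20.5 TPM in replicate 1 and 26.1 TPM in replicate 2. The level of Kit was 0.941 and 0.954 of the level of its ligand in those libraries.

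Cd34 was above both other sialomucins of its family. Podxl had 7.05 TPM in replicate 1 and 6.92 TPM in replicate 2, and Podxl2 had 11.8 TPM in replicate 1 and 19.3 TPM in replicate 2. Sele, a selectin of activated endothelium, had 3 counts in replicate 1 and 6 in replicate 2. For Procr, the ligand gene Proc had 17 counts in replicate 1 and 2 in replicate 2. The pathway partners Thbd and F2r were detected, at 8.46 ± 1.69 TPM and 52.3 ± 1.61 TPM.

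Among the MEIS partners, Meis1 was the highest gene of the list in both libraries. Pbx3 followed with 16.2 TPM in replicate 1 and 16.6 TPM in replicate 2. Hoxa9, a HOXA partner of Meis1 in stem cells and leukaemia, was not detected at 0.40 TPM in replicate 1 and 0.45 TPM in replicate 2. Hoxa10 had 5 and 4 counts. Of the 9 partners and relatives, 7 were detected.

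Mycn, Erg, Mecom and Hlf were exceeded by relatives. Myc had 99.6 TPM in replicate 1 and 84.5 TPM in replicate 2, 22.5 and 12.6 times the level of Mycn. Fli1, the closest ETS relative of Erg, had 14.5 TPM in replicate 1 and 16.3 TPM in replicate 2, 4.27 and 3.23 times the level of Erg. Prdm16, the relative of Mecom, had 3.01 TPM in replicate 1 and 3.20 TPM in replicate 2. The factors Tef, Dbp and Nfil3, which are related to Hlf by their basic leucine zipper, were all detected and above Hlf, Tef at 13.5 and 9.78 times its level.

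**Figure D4:**
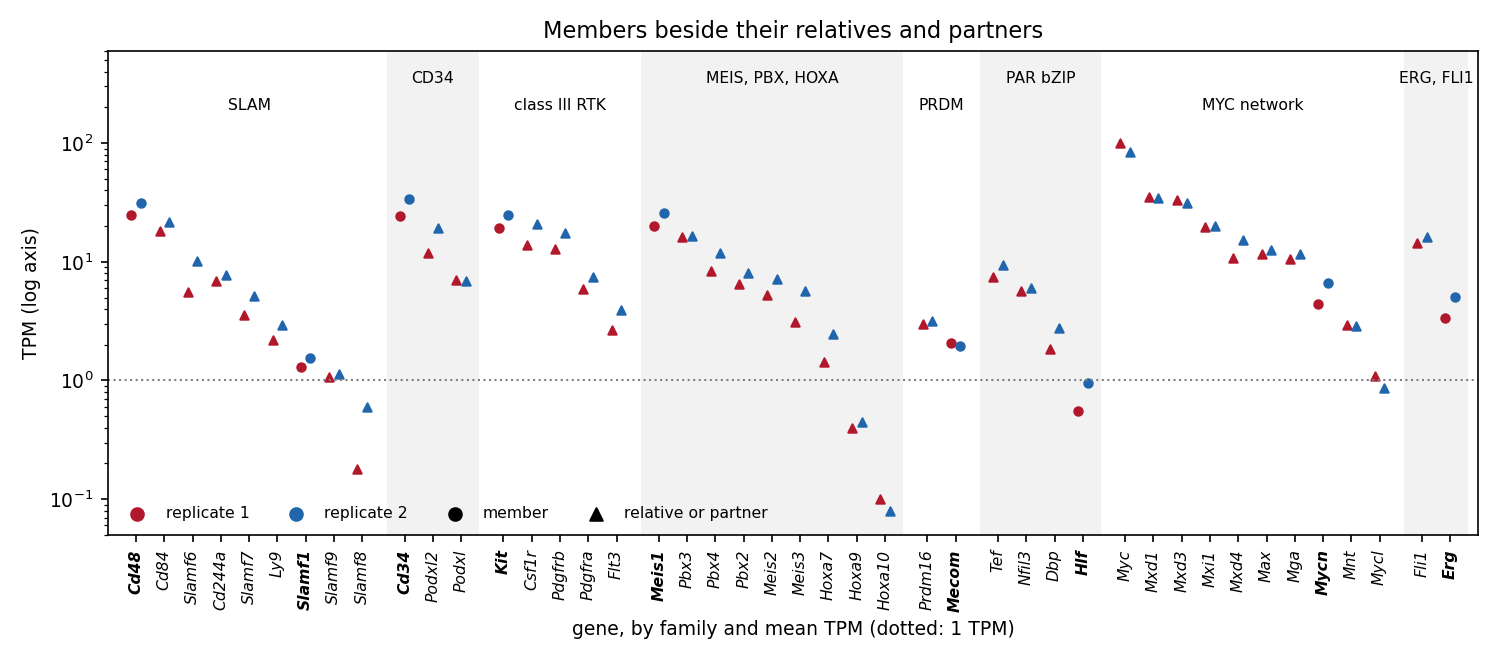
TPM on a log axis of each gene except Procr, which is not shown (bold names and circles), beside its relatives and partners (triangles). Replicate 1 is left in red and replicate 2 right in blue. Cd48, Cd34, Kit and Meis1 lead their groups, while Slamf1, Hlf, Mecom, Mycn and Erg have relatives with higher levels. Fev, an ETS gene with 0 counts in replicate 1 and 1 in replicate 2, is left out.

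The difference between the littermates was read as a log2 ratio of replicate 1 over replicate 2, scaled by the TMM method, with exact binomial 95% intervals for counting error. Of the 10 genes, 9 had a ratio below 1, beside 51.1% of the 15506 genes tested. None was 1.5-fold lower in replicate 1, beside 4.57% of genes, and none was 1.5-fold higher, beside 394 of the 15506 genes. The median was -0.25 over the 10 genes and -0.01 over all genes tested, and the interval left out equality for 7 of the 10, beside 48.8% of all genes tested and 51.1% of the 10495 genes with mean counts in the range of the 10. With 2 libraries these ratios describe 2 spleens and carry no test.

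The largest differences were those of Hlf, at -0.50 (-0.91 to -0.10), and Mycn, at -0.48 (-0.69 to -0.28), where 6.64% and 7.11% of genes had a lower ratio. Cd34 had a ratio of -0.31 (-0.40 to -0.22) and Erg one of -0.31 (-0.56 to -0.07). Meis1 had -0.27 (-0.36 to -0.18) and Kit -0.23 (-0.30 to -0.17). Cd48 had -0.17 (-0.30 to -0.04), and the intervals of Slamf1, at -0.12, and Procr, at -0.09, held equality. Mecom was the exception in direction at 0.26, with an interval of -0.02 to 0.55 that held equality.

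Other lists differed between the libraries too. Mast cell markers had a median log2 ratio of -0.79, with 8 of 10 at least 1.5-fold lower in replicate 1, and their TPM summed to 856 in replicate 1 and 1921 in replicate 2; the proteases Tpsb2 and Cma1 made up most of it. Kit is a gene of mast cells as well as of stem and progenitor cells, and its own ratio was -0.23. Erythroid markers went the other way, with a median of 0.34 and 10 of 10 higher in replicate 1. Endothelial markers, the cells that share Cd34, Erg, Mecom and Procr, had a median of -0.22, with 12 of 13 lower, and summed to 387 TPM in replicate 1 and 485 TPM in replicate 2. Leukocyte markers, which share Cd48, had a median of -0.35, with 10 of 11 lower, and summed to 8171 TPM in replicate 1 and 11721 TPM in replicate 2, most of it S100a8. Their part in the ratios of the 10 genes was not tested.

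In the other direction, erythroid markers had a median log2 ratio of 0.34 and proliferation genes one of 0.36, with 10 of 10 higher in replicate 1 in each list. The erythroid list summed to 3628 TPM in replicate 1 and 3168 TPM in replicate 2, and the proliferation list to 2731 and 2251 TPM. Pancreatic markers had a median of 1.59. Megakaryocyte markers, cells that share several surface genes with stem cells, were level, with a median of 0.00 and 4 of 10 lower. Splenic mesenchyme had a median of -0.31, with 11 of 11 lower, and summed to 963 TPM in replicate 1 and 1339 TPM in replicate 2. The part of these lists in the ratios of the 10 genes was not tested either.

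**Figure D5:**
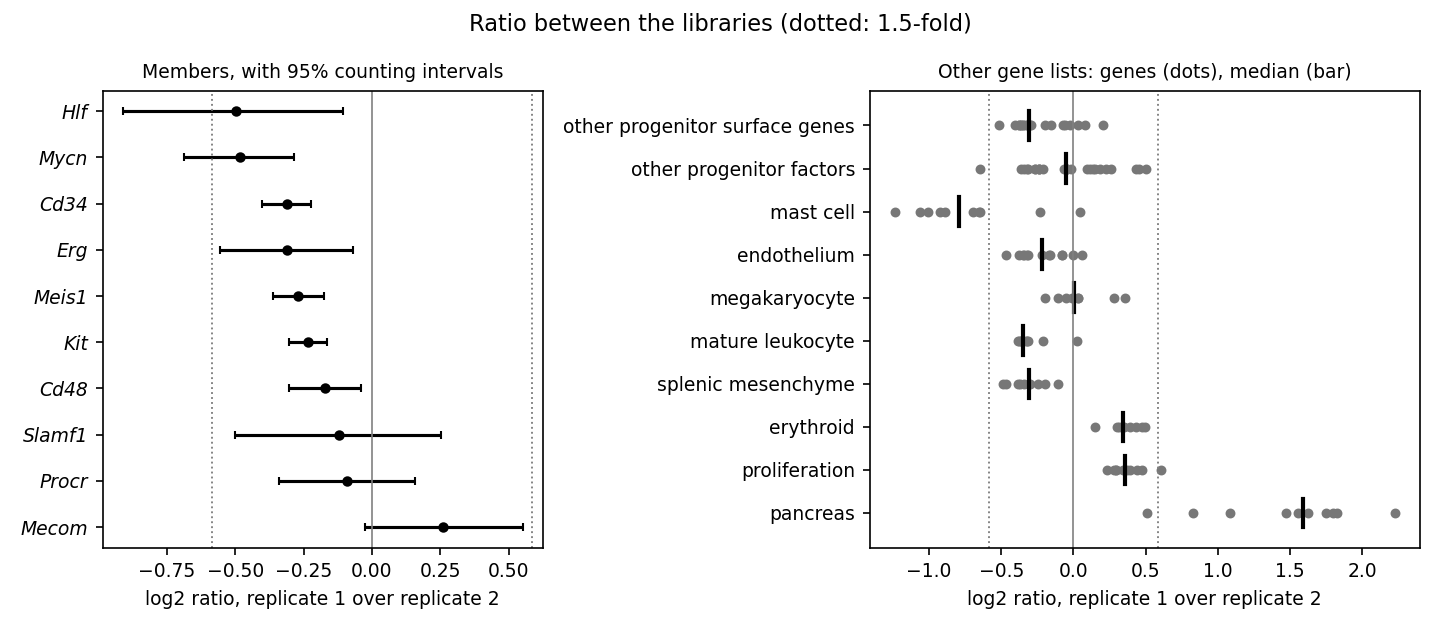
Log2 ratio of replicate 1 over replicate 2 for each of the 10 genes with 95% counting intervals (left), and for the genes of other lists with their medians (right); dotted lines mark 1.5-fold. All genes but Mecom lie left of 0 and none passes the dotted lines, while most mast cell and pancreatic markers do.

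Other progenitor genes, listed with earlier results of these data known, surrounded the 10. Of 26 further transcription factors 25 were detected, all but Hoxa9. Lmo2, Gfi1b and Mllt3 were highest, at 157 ± 6.34, 126 ± 7.30 and 72.8 ± 14.9 TPM. These 3 had log2 ratios of 0.22, 0.26 and 0.43, above 0 as for the erythroid markers, and which cells expressed them was not tested. The 26 factors had a median log2 ratio of -0.05, with 16 of 26 lower in replicate 1. They lay between Gata2 at -0.65, which mast cells also express, and the fetal RNA-binding protein gene Lin28b at 0.50. All 20 further surface genes were detected, led by Cd9, Cd164 and Ly6a (Sca-1) at 73.2 ± 5.85, 58.9 ± 6.53 and 51.2 ± 16.3 TPM. Their median was -0.31, with 17 of 20 lower in replicate 1, between Ly6a at -0.51 and Itga4, an integrin subunit, at 0.20.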

How the data were processed

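The deposited values come as 1 gene table and 1 transcript table per library, made on the mm10 assembly, per the labels, and on GENCODE M4 models, per the listing that came with the samples. The expected counts in them were made by the authors by dividing reads that match several features. The TPM values of the authors cover all features with spike-ins, with a posterior mean and posterior SDs beside them. The columns are laid out as RSEM writes them, but no source used here names the aligner, the quantifier or a version.

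Gene and transcript names, classes and positions were taken from GENCODE M21 (GRCm38) through Ensembl identifiers, and 42462 genes had a match. Levels are the deposited TPM; detection means at least 1 TPM in each library. For ratios, expected counts were rounded to whole numbers and TMM factors computed with edgeR 4.0.16 under R 4.3.3, using a prior count of 2 and leaving out genes whose mean count was under 20. This step was tested on simulated counts. DESeq2 1.42.0 supplied other size factors. Mecom, Meis1, Erg and Mycn first exons within 2 kb were grouped. Other steps used Python 3.11.15, pandas 2.3.3, scipy 1.17.1 and matplotlib 3.10.9.

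All 10 genes were described in full; any gene of a list of up to 10 could be named, and of longer lists the 3 highest, those not detected and the largest ratio in each direction, plus a few markers that identify a tissue. The members and lists were chosen with earlier results of these data known. The libraries come from separate pups by their descriptions, and intervals cover counting error only. Values of 2 listed genes are not reported here.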

Additional observations from a re-analysis of the deposited data

How the results depend on the processing

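No paired analysis was possible because there is 1 group. Of the 10 genes, 9 were detected at 1 TPM, beside 55.6% of protein-coding genes. The count was 10 at 0.5 TPM, 7 at 2 TPM and 5 at 5 TPM, and 9 with posterior mean TPM or with either library alone. The share over all protein-coding genes was not computed for these alternatives, so their counts cannot be set against it. The summed TPM of the 10 genes was 122 as the mean of the libraries and 106 to 139 with one left out, and the median 5.92 and 5.11 to 6.73. None of the 10 passed 1.5-fold with TMM, DESeq2 size factors, spike-in totals, other prior counts or other filters. With library size 1 (Hlf) did, and with the ratio of deposited TPM 2 (Hlf and Mycn) did. With TMM 1103 of the 15506 genes tested passed 1.5-fold in either direction, and this was not counted for the other settings. Library size and the ratio of deposited TPM moved the median of all genes tested to -0.11 and -0.14. Relative to it the 10 genes had a median of -0.25 and -0.24. In each alternative 9 of the 10 were lower in replicate 1, a count added after seeing the data. The median coding share of the detected genes was 88.7% with Erg and 93.1% over genes with every expressed transcript placed, a change chosen after seeing the data that crosses the median of other genes. The spike-ins held only 694 and 748 counts. The leading transcript share of Hlf was 82.7% by TPM, 95.7% by counts and 47.3% by posterior mean TPM, and the cause was not tested. Of the alternatives for single genes (level, ratio or leading transcript), 147 stayed within the spread between libraries or the counting interval and 23 did not. The 147 include the levels and leading shares of all 10 genes from either library alone, which could not fall outside. With 2 libraries, each value always lies within 1 SD of their mean. No ratio changed sign. Depth limits Slamf1, Hlf and Mecom most, with 88 to 218 counts per library.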
